A study of Bos taurus with 18 samples.

Results

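Genes of cholesterol and fatty acid synthesis were followed along the epididymal duct of the bull. The list held 32 genes that encode enzymes of both pathways and the proteins that regulate them, and 28 of them were measured, out of 18010 genes named on the array. Each gene was taken from the probe set, a group of probes for one transcript, that named that gene alone, and where a gene had several such probe sets, from the brightest by its mean over 18 arrays. HMGCS1, FDPS, ACAT2 and STARD4 lay only on probe sets that also named another gene, so no values are given for them. The animals were 6 Holstein bulls, of which 3 were rated as highly fertile and 3 as medium-low, all aged 51 to 71 months, and the labels name no treatment. From each bull a piece of caput, corpus and cauda, the head, body and tail of the epididymis, was taken after slaughter, which made 6 groups of 3 arrays. Fertility was rated from the cows that had not returned for service 56 days after insemination, and the bulls had been sent to slaughter for the milk yield of their daughters. Each value is a log2 signal, so a difference of 1 is a doubling, and pieces of whole tissue were used, so fewer cells of a type and less RNA per cell cannot be told apart.

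Cells make cholesterol from acetyl-CoA in a chain of enzymes that runs through mevalonate, squalene and lanosterol, and they make fatty acids from the same starting compound through malonyl-CoA. Desaturases then add double bonds to the fatty acids and elongases lengthen them. The transcription factors encoded by SREBF1 and SREBF2 switch on most of these genes, SCAP escorts them to the place where they are cut into their active form, and INSIG1 holds them back when sterol is plentiful. In the epididymis the sterols and fatty acids of the sperm membrane are remodelled while sperm pass from caput to cauda.

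The caput label matched the known markers of that segment, and no markers of corpus or cauda were listed. The mean log2 signal of 7 genes known from principal cells of the caput was 10.74 to 13.55 on the 6 caput arrays, 7.09 to 9.42 in the corpus and 6.43 to 7.0 in the cauda. A pair of caput arrays stood apart from the rest. Medium-low caput replicates 1 and 2 had the highest of these marker levels, 13.55 and 13.54, against 10.74 to 11.18 on the other caput arrays. Among the corpus arrays, medium-low replicates 1 and 2 were also highest, at 8.91 and 9.42, against 7.09 to 7.64 on the others. Correlations across probe sets between arrays of the medium-low caput were 0.951 to 0.980, against 0.989 to 0.990 in the high caput, and probe sets are not independent replicates. For the 28 measured genes, segment calls that changed without both caput arrays are given with and without them. Other pathway genes and cell type markers are given with all arrays only. Leaving out both caput arrays leaves 1 medium-low caput array, assumed to vary like the other groups. The corpus pair was left out singly but not together.

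Most of the measured genes were lowest in the corpus. Of the 28 measured genes, 21 (75%) had their lowest segment mean in the corpus, against 25.45% of all 18010 genes, and 2 had their highest there, against 36.4% of all genes. In the high-fertility bulls alone 16 genes were lowest in the corpus, in the medium-low bulls alone 21, and 15 genes were lowest there in both. The mean level of the 28 genes lay between 8.64 and 8.73 on the 6 corpus arrays, between 8.96 and 9.35 in the caput and between 8.89 and 9.32 in the cauda. All 6 corpus arrays were therefore below all 12 other arrays.

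**Figure D1:**
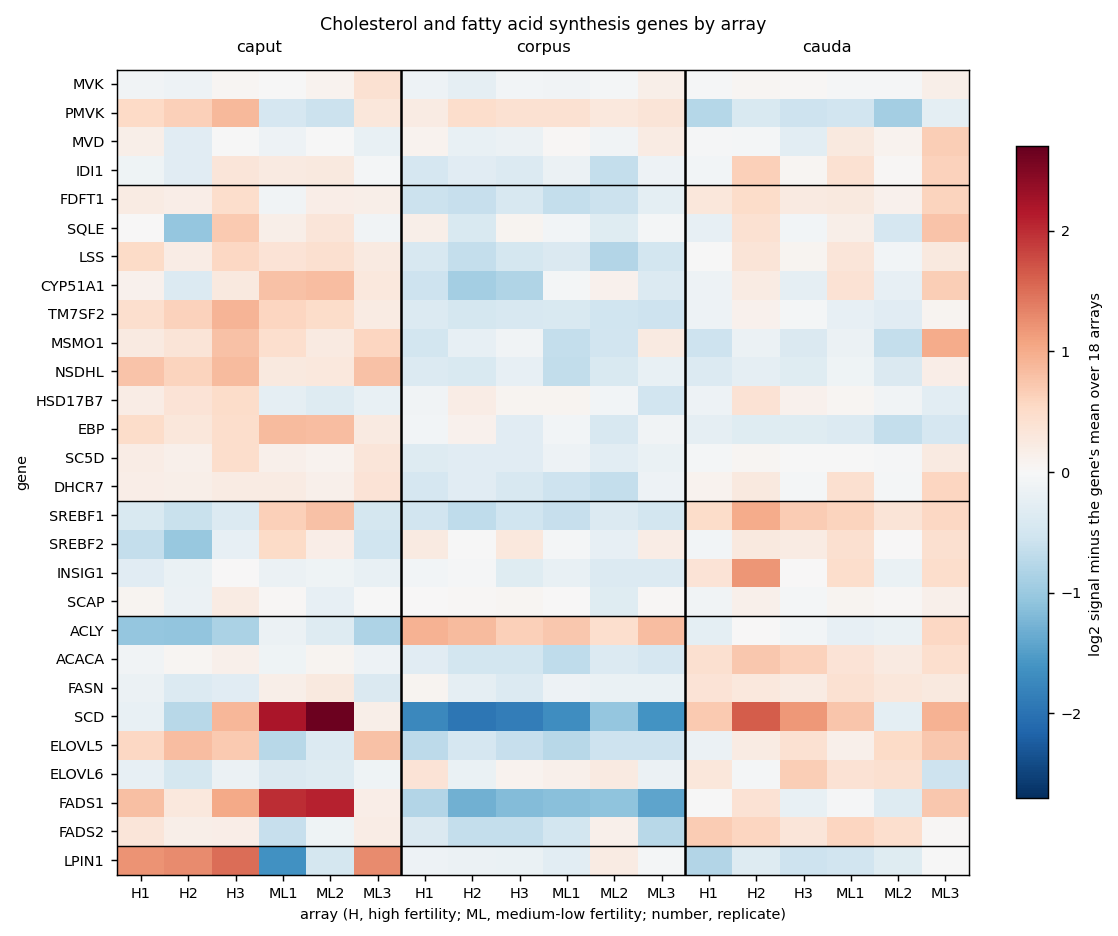
Log2 signal of each measured gene (rows, ordered by role) on each array (columns, grouped by segment; H, high fertility; ML, medium-low fertility), as the difference from the gene's mean over 18 arrays. Blue cells fill the corpus columns for most sterol enzymes and for SCD and FADS1, ACLY is red there, and ML1 and ML2 of the caput stand out for SCD, FADS1, SREBF1 and LPIN1.

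Against the caput, the corpus had less transcript of most enzymes that turn squalene into cholesterol and of the desaturases SCD and FADS1. In limma's test, 15 genes fell and 1, ACLY, rose, while 12 did not pass an adjusted p of 0.05. Over all probe sets 33.2% passed, 13.7% as lower and 19.5% as higher. That balance depended on scaling. Of the probe sets that passed, 58.7% were higher in the deposited values and 54.0% after quantile normalization. The share was 47.5% after cyclic loess and 41.1% with array medians subtracted. The median difference of the 28 genes was -0.48, against 0.06 over all probe sets. In 10 genes all 6 corpus arrays were below all 6 caput arrays, a pattern found in 6.55% of probe sets, and in ACLY all were above, as in 8.53%. Without both arrays that stood apart, 2 genes rose and 15 fell, and 14 of these were among the 16, while 31.5% of all probe sets passed.

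From the corpus to the cauda most of these genes came back up. Here 15 genes rose and 2, PMVK and ACLY, fell, where 24.3% of all probe sets passed, 12.1% as higher and 12.3% as lower. The median difference was 0.33, against -0.04 over all probe sets. The cauda arrays lay entirely above the corpus arrays for 12 genes, as in 7.36% of probe sets, and entirely below for PMVK, as in 6.93%. This comparison shares its corpus arrays with the previous one, so the fall and the return are not independent measurements. No caput array enters these differences, although all 18 arrays set the spread.

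Set directly against the caput, the cauda differed gene by gene and not as a whole. Of the 28 genes, 7 rose and 6 fell, where 32.2% of all probe sets passed, 17.2% as higher and 15.1% as lower. The genes that rose were the regulators SREBF1, SREBF2 and INSIG1 and the fatty acid enzymes ACLY, ACACA, FASN and ELOVL6. Those that fell were FADS1, LPIN1, PMVK and the sterol enzymes EBP, NSDHL and TM7SF2. In NSDHL, TM7SF2 and EBP, 3 genes, all cauda arrays lay below all caput arrays, as in 6.88% of probe sets, and in ACACA alone they lay above, as in 8.7%. The median difference was 0.0048, against 0.03 over all probe sets. Under other scalings the split became 5 higher and 8 lower with array medians subtracted, 6 and 6 with quantile normalization and 6 and 8 with cyclic loess, where 32%, 32.5% and 32.7% of all probe sets passed. With the replicate number as a block 8 rose and 8 fell, and 36.5% of probe sets passed, since MSMO1 (adjusted p = 0.0283), SC5D (adjusted p = 0.0289) and FADS2 (adjusted p = 0.0399) then also passed.

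**Figure D2:**
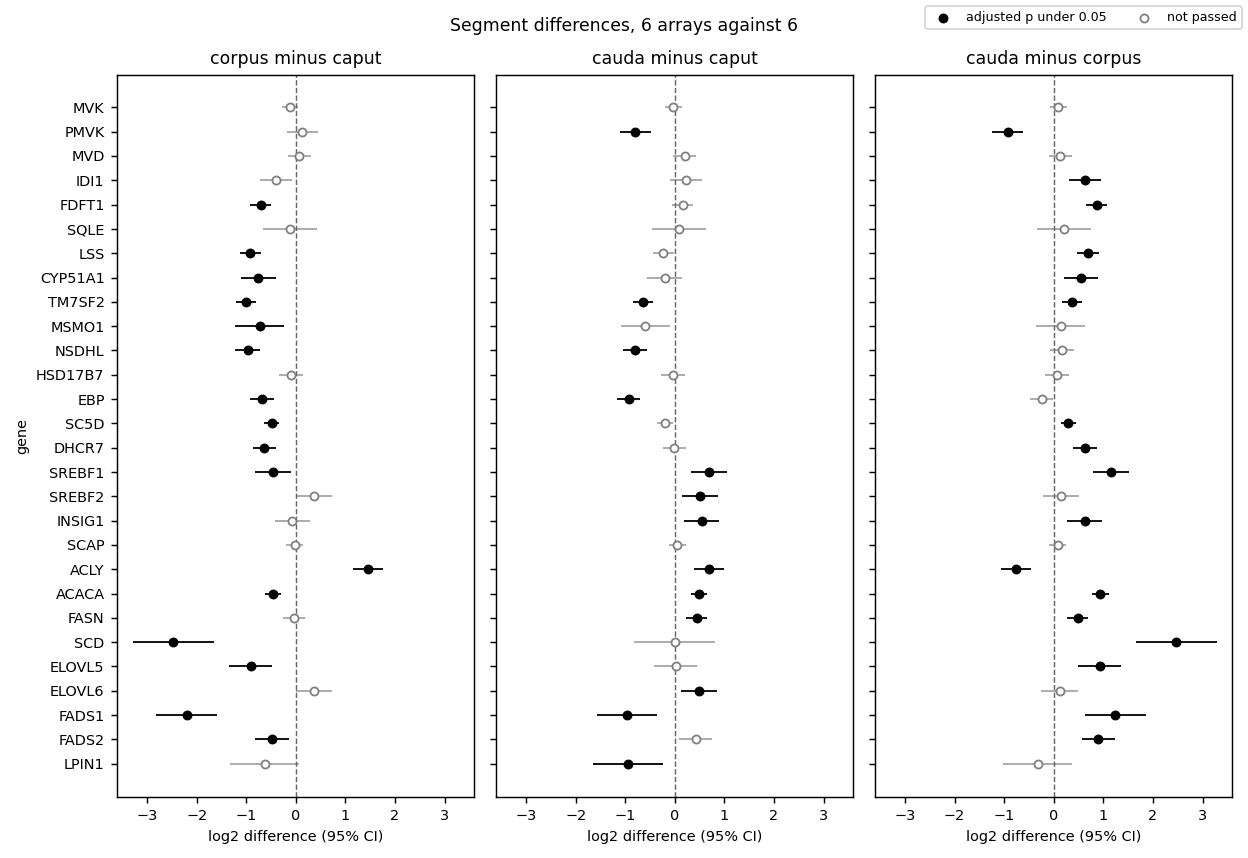
Log2 difference between segments for each gene, 6 arrays against 6, with the 95% confidence interval of the limma fit as bars; filled points passed an adjusted p of 0.05. Most filled points lie left of 0 for corpus minus caput and right of 0 for cauda minus corpus, with ACLY on the opposite side in both.

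Early in the sterol chain, between mevalonate and the isoprenoid units, PMVK and IDI1 passed in a segment comparison and MVK and MVD did not. PMVK is the kinase that phosphorylates phosphomevalonate. Its caput signal was 8.81, 8.93 and 9.17 in high-fertility replicates 1 to 3 and 7.83, 7.70 and 8.60 in the medium-low ones. Its corpus signal ran from 8.51 through a median of 8.66 to 8.75, and its cauda signal from 7.36 through 7.75 to 8.02. All cauda arrays thus lay below all corpus arrays, and the caput spanned both. PMVK fell by 0.93 from corpus to cauda (SE 0.15, adjusted p = 0.000245) and its cauda minus caput difference was -0.80 (SE 0.15, adjusted p = 0.000566). IDI1, the isomerase of the isoprenoid units, rose by 0.63 from corpus to cauda (SE 0.15, adjusted p = 0.00601). Its corpus arrays, 9.20 to 9.69, all lay below its cauda arrays, 9.75 to 10.47. Its difference of corpus minus caput was -0.40 (adjusted p = 0.0512), which passed with the replicate block (adjusted p = 0.0363). MVK, the mevalonate kinase, and MVD, the decarboxylase, did not pass in any segment comparison, with differences of -0.12 to 0.20. Without both caput arrays that stood apart, MVK passed for corpus minus caput at -0.24 (adjusted p = 0.0346).

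Between squalene and cholesterol, 9 of 11 enzymes fell from caput to corpus, where 13.7% of all probe sets passed as lower. Of the 11, 6 rose again from corpus to cauda, where 12.1% passed as higher. TM7SF2, a sterol reductase that acts after lanosterol demethylation, had signals of 7.95 to 8.65 in the caput (median 8.27), 7.17 to 7.36 in the corpus (median 7.26) and 7.43 to 7.83 in the cauda (median 7.63). The ranges of its segments did not overlap in any pair. It fell by 1.01 from caput to corpus, 2.02-fold (SE 0.094, adjusted p = 1.42e-06), and rose by 0.37 to the cauda (adjusted p = 0.00869), with a cauda minus caput difference of -0.64 (adjusted p = 8.57e-05).

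LSS, which folds squalene epoxide into lanosterol, the first sterol, was lowest in the corpus in both sets of bulls. In the high-fertility bulls its signals in replicates 1 to 3 were 8.59, 8.28 and 8.63 in the caput, 7.63, 7.43 and 7.60 in the corpus and 8.07, 8.42 and 8.14 in the cauda. In the medium-low bulls they were 8.45, 8.50 and 8.31, then 7.69, 7.28 and 7.59, then 8.40, 8.0 and 8.34. Every corpus array was below every other array in both sets of bulls. LSS fell by 0.92 to the corpus (SE 0.10, adjusted p = 7.21e-06) and rose by 0.69 to the cauda (adjusted p = 0.000131). FDFT1, the squalene synthase that commits the chain to sterols, had 9.75 to 10.31 in the caput, 9.19 to 9.59 in the corpus and 9.96 to 10.44 in the cauda. It fell by 0.71 (SE 0.099, adjusted p = 8e-05) and rose by 0.86 (adjusted p = 1.58e-05), again without overlap between the corpus and either neighbour. DHCR7, the reductase that makes cholesterol from its dehydro precursor, fell by 0.64 (adjusted p = 0.00045) and rose by 0.63 (adjusted p = 0.000618), and its difference of cauda minus caput was -0.01 with a 95% interval of -0.24 to 0.22.

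A second shape within the sterol enzymes was a step down after the caput with no rise from corpus to cauda that passed. MSMO1, taken up below, also fell to the corpus and did not pass from corpus to cauda (0.14, adjusted p = 0.718). NSDHL, a decarboxylase that removes methyl carbons from the sterol ring, had signals of 9.24 to 9.84 in the caput (median 9.66), 8.31 to 8.78 in the corpus (median 8.59) and 8.59 to 9.16 in the cauda (median 8.70). The caput was above both other segments on every array, while corpus and cauda overlapped. It fell by 0.97 to the corpus (SE 0.12, adjusted p = 1.86e-05) and its cauda was lower than its caput by a difference of -0.81 (adjusted p = 7.7e-05). Its cauda minus corpus difference was 0.17 (adjusted p = 0.334), which does not show that a rise was absent. EBP, the isomerase that moves the ring's double bond, had 10.33 to 10.94 in the caput (median 10.57), 9.65 to 10.20 in the corpus (median 9.998) and 9.44 to 9.83 in the cauda (median 9.73). It fell by 0.68 from caput to corpus (SE 0.11, adjusted p = 0.000287), the caput lay above the cauda on every array with a difference of -0.93 (adjusted p = 1.25e-05), and cauda minus corpus was -0.25 (adjusted p = 0.125).

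The remaining sterol enzymes varied more between arrays. CYP51A1, the lanosterol demethylase, had 6.27 to 7.48 in the caput, 5.72 to 6.74 in the corpus and 6.40 to 7.30 in the cauda, so its segments overlapped. It fell by 0.76 to the corpus (SE 0.16, adjusted p = 0.00249) and rose by 0.55 to the cauda (adjusted p = 0.0228). MSMO1, the oxidase that starts the removal of methyl groups from the ring, had 10.29 to 10.84 in the caput, 9.41 to 10.29 in the corpus and 9.41 to 11.06 in the cauda, the last value from medium-low replicate 3. It fell by 0.73 to the corpus (SE 0.23, adjusted p = 0.0237), and without both caput arrays that stood apart the adjusted p was 0.0521. SC5D, a desaturase of the sterol ring, moved least among the enzymes that passed, falling by 0.49 and rising by 0.29, but its corpus arrays, 10.47 to 10.67, lay below all caput and cauda arrays. SC5D did not pass for cauda minus caput, a difference of -0.20 (adjusted p = 0.0509), and passed without both caput arrays that stood apart, at -0.27 (adjusted p = 0.0331). SQLE, the squalene epoxidase, and HSD17B7, a ketoreductase of the same demethylation, did not pass in any segment comparison. The 95% interval of corpus minus caput was -0.66 to 0.43 for SQLE and -0.33 to 0.14 for HSD17B7, so a fall as large as in LSS lay outside both.

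**Figure D3:**
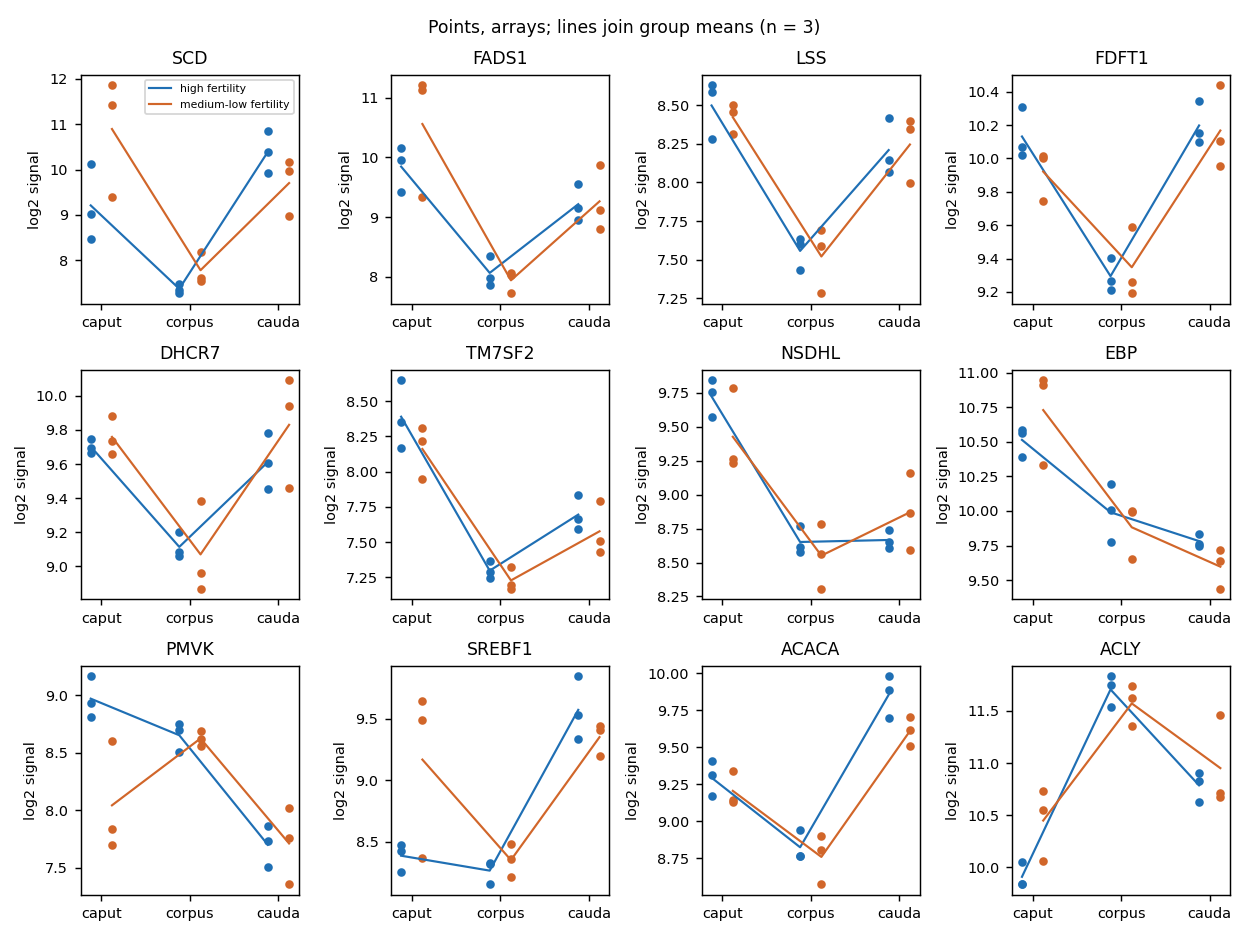
Log2 signal of 12 genes by segment, one point per array, with lines joining the means of 3 arrays of each fertility group; each panel has its own vertical scale. LSS, FDFT1 and DHCR7 trace a V with the corpus lowest, NSDHL and EBP step down after the caput, and ACLY peaks in the corpus.

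Fatty acid genes held both the largest falls and the one rise of the corpus. SCD, the desaturase that makes oleate from stearate, had signals of 9.03, 8.47 and 10.13 in the caput of high-fertility replicates 1 to 3 and 11.43, 11.87 and 9.39 in the medium-low caput. Its corpus signals were 7.27 to 8.19 with a median of 7.52, and its cauda signals 8.97 to 10.86 with a median of 10.07. All corpus arrays lay below all others, and the caput arrays spanned more than 3 log2 units. SCD fell by 2.48 to the corpus, 5.57-fold (SE 0.38, adjusted p = 0.000188), and rose by 2.47 to the cauda (SE 0.38, adjusted p = 0.000229). The other probe set of SCD traced the same path, with 7.46 to 10.57 in the caput, 6.24 to 7.08 in the corpus and 8.08 to 9.97 in the cauda.

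FADS1, a desaturase of polyunsaturated fatty acids, followed SCD on the way down. Its caput signals were 9.95, 9.42 and 10.17 in the high-fertility bulls and 11.14, 11.22 and 9.33 in the medium-low ones, with replicates 1 and 2 again highest. The corpus ran from 7.72 through 8.0 to 8.35 and the cauda from 8.79 through 9.13 to 9.88, without overlap. FADS1 fell by 2.21 to the corpus (SE 0.29, adjusted p = 4.04e-05) and rose by 1.24 to the cauda (adjusted p = 0.00512). Its cauda was below its caput by a difference of -0.97 (adjusted p = 0.0172), which became -0.35 (adjusted p = 0.279) without both arrays that stood apart. FADS2, the desaturase of the preceding step, fell by 0.48 to the corpus (SE 0.16, adjusted p = 0.0298) and rose by 0.90 to the cauda (SE 0.16, adjusted p = 0.000667). Its signals were 8.11 to 9.05 in the caput, 7.99 to 8.86 in the corpus and 8.76 to 9.42 in the cauda, and the segments overlapped.

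ACLY, which cuts citrate to supply cytosolic acetyl-CoA to both pathways, was highest in the corpus. Its caput signals were 9.84 to 10.73 (median 10.06), its corpus signals 11.36 to 11.83 (median 11.68) and its cauda signals 10.63 to 11.46 (median 10.77). All corpus arrays were above all caput arrays, and medium-low replicate 3 of the cauda reached into the corpus range. ACLY rose by 1.46 to the corpus, 2.75-fold (SE 0.14, adjusted p = 2.45e-06), fell by 0.77 to the cauda (adjusted p = 0.000971) and stayed 0.69 above the caput there (adjusted p = 0.00152). ACACA, the carboxylase that makes malonyl-CoA, had 9.13 to 9.41 in the caput, 8.57 to 8.94 in the corpus and 9.51 to 9.98 in the cauda. None of its 3 segments overlapped another, with a fall of 0.46 to the corpus (SE 0.078, adjusted p = 0.000425), a rise of 0.94 to the cauda (adjusted p = 6.85e-07) and a cauda 0.48 above the caput (adjusted p = 0.000214).

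FASN, the synthase that builds palmitate from malonyl-CoA, did not pass between caput and corpus, where its difference was -0.04 with a 95% interval of -0.26 to 0.18, and 0.16 (adjusted p = 0.198) without both arrays that stood apart. It rose by 0.48 from corpus to cauda (SE 0.10, adjusted p = 0.00314), from 11.14 to 11.58 up to 11.73 to 11.92 without overlap. ELOVL5, an elongase of polyunsaturated fatty acids, had caput signals of 10.63, 10.91 and 10.78 in the high-fertility bulls and 9.31, 9.70 and 10.87 in the medium-low ones. Its corpus ran from 9.32 through 9.48 to 9.61 and its cauda from 9.91 through 10.39 to 10.79, so the only caput arrays that reached down to the corpus or near it were medium-low replicates 1 and 2. ELOVL5 fell by 0.91 to the corpus (SE 0.20, adjusted p = 0.00328), or by 1.36 without those arrays (adjusted p = 1.11e-05), and rose by 0.92 to the cauda (adjusted p = 0.00367). Against the caput, its cauda difference was 0.01, and -0.44 (adjusted p = 0.0291) without them. ELOVL6, the elongase of saturated fatty acids, passed only for cauda minus caput, at 0.48 (SE 0.17, adjusted p = 0.0441), and not without both arrays (0.40, adjusted p = 0.201).

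Of the 4 regulators, SREBF1, INSIG1 and SCAP had their lowest mean over all bulls in the corpus and SREBF2 in the caput, and all 4 had their highest mean in the cauda. From caput to corpus SREBF1 alone passed. SREBF1, whose protein chiefly drives fatty acid genes, had caput signals of 8.43, 8.26 and 8.47 in the high-fertility bulls and 9.49, 9.64 and 8.37 in the medium-low ones. The corpus ran from 8.15 through 8.32 to 8.48 and the cauda from 9.20 through 9.43 to 9.85. Cauda and corpus did not overlap, and 4 caput arrays lay at the corpus level while medium-low replicates 1 and 2 lay at the cauda level. SREBF1 rose by 1.15 from corpus to cauda, 2.22-fold (SE 0.17, adjusted p = 0.000154). The corpus minus caput difference of -0.47 (adjusted p = 0.0467) rested on the 2 caput arrays, and was -0.07 (adjusted p = 0.666) without them. Cauda minus caput was 0.68 (adjusted p = 0.00601) with them and 1.08 (adjusted p = 7.79e-06) without.

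SREBF2, whose protein chiefly drives sterol genes, had signals of 8.01 to 9.55 in the caput, 8.83 to 9.33 in the corpus and 8.97 to 9.48 in the cauda, all overlapping. It was 0.51 higher in cauda than in caput (SE 0.17, adjusted p = 0.0339), and 0.80 (adjusted p = 0.00249) without both arrays that stood apart, when corpus minus caput also passed at 0.66 (adjusted p = 0.00939). With all arrays, corpus minus caput was 0.37 (adjusted p = 0.114), above 0. In that comparison 9 of 11 enzymes of the later sterol chain fell, as did 13.7% of all probe sets. INSIG1 rose from corpus, 7.46 to 7.80, to cauda, 7.65 to 9.03, by 0.62 (SE 0.16, adjusted p = 0.0124), and was 0.55 higher in cauda than in caput (adjusted p = 0.0189), where without both arrays the adjusted p was 0.0617. SCAP had the narrowest spread of the 28 genes, from 8.50 to 9.04 over 18 arrays, and did not pass in any segment comparison.

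LPIN1 encodes a phosphatase that turns phosphatidate into diacylglycerol, the precursor of stored fat and of membrane lipids. In the caput it had 10.07, 10.13 and 10.37 in the high-fertility bulls and 7.23, 8.38 and 10.13 in the medium-low ones. The corpus ran from 8.59 through 8.71 to 9.09 and the cauda from 8.08 through 8.43 to 8.86. Apart from medium-low replicates 1 and 2, every caput array was above every other array. Cauda minus caput was -0.95 (SE 0.33, adjusted p = 0.0373) with those arrays and -1.72 (adjusted p = 7.87e-07) without, and corpus minus caput was -0.62 (adjusted p = 0.157) with them and -1.40 (adjusted p = 6.52e-06) without. Cauda minus corpus, -0.32, passed only without them (adjusted p = 0.0454).

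Between the fertility groups, no measured gene passed within any segment. In the caput limma called 0 of 28 genes, with 9 at an unadjusted p under 0.05, where 0.213% of all probe sets passed. In the corpus 0 genes passed and 1 had an unadjusted p under 0.05, where 0.00374% of probe sets passed, and in the cauda 0 passed and 2 did, where 0.0112% passed. The test of whether the fertility difference varied between segments called 0 genes, with 5 at an unadjusted p under 0.05, and 0.00374% of probe sets. These shares are at the adjusted threshold. The share of all probe sets at an unadjusted p under 0.05 was not counted, so those gene counts cannot be read as an excess. Between the groups' arrays 3 genes lay without overlap as lower in the medium-low caput, as did 9.62% of probe sets, and 2 as higher, as did 8.93%. The same counts were 0 (5.68%) and 3 (5.67%) in the corpus and 1 (5.06%) and 1 (6.53%) in the cauda. A p that misses the threshold does not show that the groups were alike, and 3 arrays a group gave wide intervals for the variable genes.

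The widest differences between the bulls were in the caput. The 3 genes of smallest p there were PMVK at -0.93 (SE 0.21, adjusted p = 0.0624), HSD17B7 at -0.62 (SE 0.16, adjusted p = 0.0661) and LPIN1 at -1.61 (SE 0.46, adjusted p = 0.0756), medium-low minus high. HSD17B7 had 9.33, 9.51 and 9.64 in the high caput and 8.90, 8.80 and 8.93 in the medium-low caput, and PMVK likewise did not overlap between the groups. Both groups overlapped for LPIN1 through medium-low replicate 3. SCD differed by 1.69 (95% interval 0.53 to 2.84, adjusted p = 0.0969), with the high-fertility caput at 8.47 to 10.13 and medium-low replicate 3 within that range. For SCD, LPIN1 and PMVK the sizes rested largely on medium-low replicates 1 and 2. With replicate 3 as the lone medium-low caput array their differences were 0.18, -0.06 and -0.37. HSD17B7 moved little, to -0.56.

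The result in the caput turned on 1 array. Without medium-low caput replicate 3, whose values lay near the high-fertility caput for SCD, FADS1, SREBF1 and LPIN1, 2 arrays were left in that group and 12 of the 28 genes passed, as did 17.6% of all probe sets. Those higher in the medium-low caput were then SCD (2.44), FADS1 (1.33), SREBF1 (1.18), SREBF2 (0.98), CYP51A1 (0.82), ACLY (0.73), FASN (0.49) and EBP (0.41). Those lower were LPIN1 (-2.38), ELOVL5 (-1.27), PMVK (-1.20) and HSD17B7 (-0.64). With replicate 3 alone, the medium-low caput had no spread of its own, so calls from that setting are not set beside these. The share of all probe sets that passed moved with the genes, and 11 genes passed with array weights, as did 18.6% of probe sets.

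**Figure D4:**
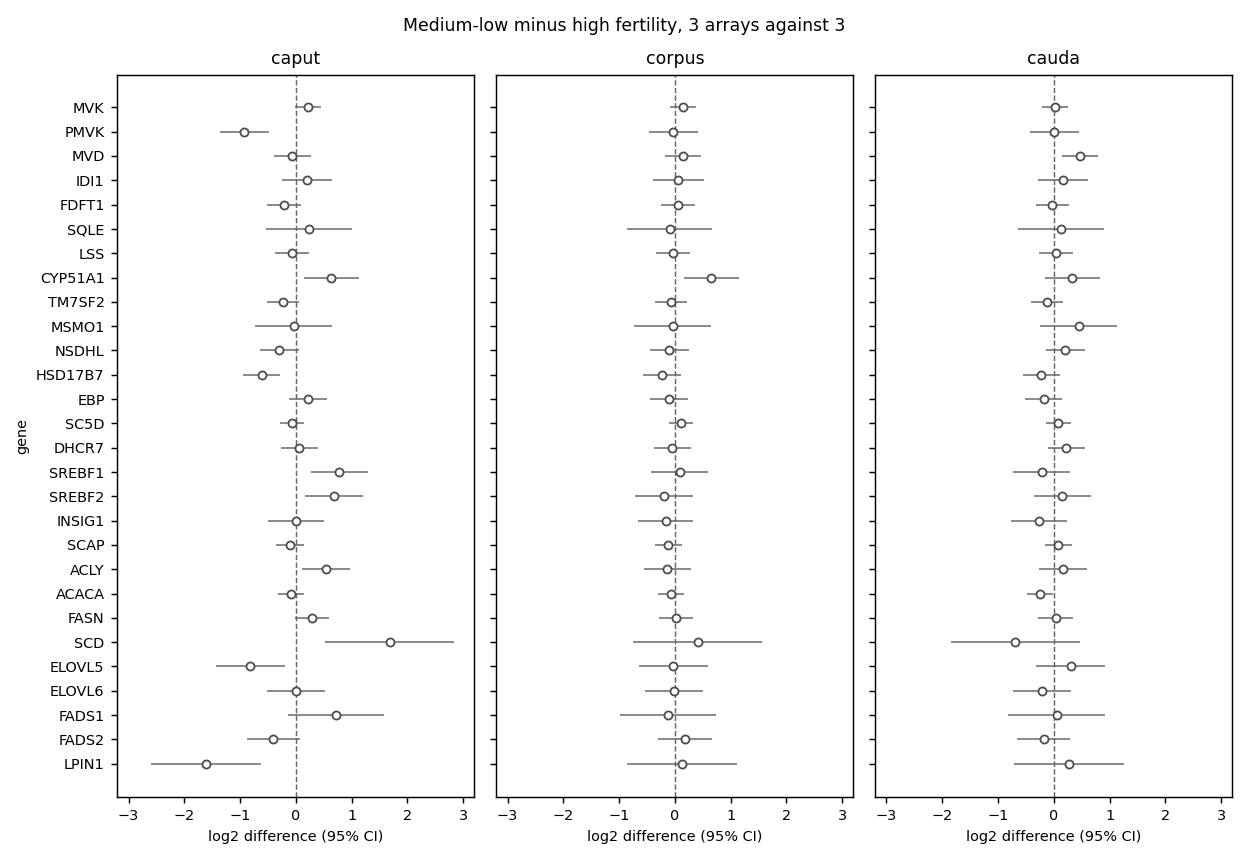
Log2 difference between medium-low and high fertility for each gene in each segment, 3 arrays against 3, with 95% confidence intervals of the limma fit. The widest differences are in the caput panel, for SCD at 1.69 and LPIN1 at -1.61, and no gene passed an adjusted p of 0.05.

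Over all segments, CYP51A1 had the smallest p of the 28 genes. It had a mean signal above only 37.4% of probe sets, and low signals may be background. In the corpus it had 6.07, 5.72 and 5.82 in the high-fertility bulls and 6.57, 6.74 and 6.26 in the medium-low ones, a difference of 0.66 (95% interval 0.16 to 1.15). The groups did not overlap in the corpus or in the caput, where the difference was 0.64, and 0.28 without medium-low replicates 1 and 2. In the cauda they overlapped and the difference was 0.33. In limma's fit of 6 means, each over the segments of 1 replicate number, its level was 0.54 higher in the medium-low bulls (SE 0.079, adjusted p = 0.378) and did not pass. There 0 of the genes passed, as did 0.00374% of probe sets, both at the adjusted threshold. An unadjusted p under 0.05 was found for 3 genes, and was not counted over all probe sets. The other genes of smallest p were HSD17B7 (-0.23) and MVK (0.15) in the corpus, both with an adjusted p of 1.00, and MVD (0.46, adjusted p = 0.664) and ACACA (-0.24, adjusted p = 0.827) in the cauda.

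Other genes of the same pathways, taken as a list of 49 of which 42 were measured, changed in both directions. From caput to corpus 14 fell and 8 rose, where 33.2% of all probe sets passed, with a median difference of -0.04. From corpus to cauda 15 rose and 12 fell, where 24.3% passed, with a median of 0.14. ACSL5 and ACSL3, which activate fatty acids with coenzyme A, fell to the corpus by 2.18 and 1.48, and ME1, an enzyme that supplies NADPH, by 1.45. ABCA1, which exports cholesterol, fell by 1.29. The elongases ELOVL7 and ELOVL2 rose by 2.15 and 1.39.

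Against the caput, 4 of the 42 genes rose in the cauda and 11 fell, where 32.2% of all probe sets passed, with a median of -0.06. GPAM, the first acyltransferase of glycerolipid synthesis, fell by 2.74, and SCD5, a relative of SCD, fell by 2.43, and from corpus to cauda their differences were -2.39 and -2.57. SCD5 thus fell from corpus to cauda, where SCD rose. ACSS2, which makes acetyl-CoA from acetate, rose by 1.67 over the caput and by 1.48 over the corpus. SOAT1, which esterifies cholesterol for storage, fell by 1.29 from caput to cauda, and ACSL5 and ME1 fell by 1.49 and 0.91. From corpus to cauda THRSP, a protein linked to fat synthesis, rose by 2.08, ELOVL2 fell by 1.12 and STARD5, a sterol carrier, fell by 0.84.

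Markers of other cell types also differed in level between segments. Over all probe sets, 13.7% passed as lower and 19.5% as higher for corpus minus caput. For cauda minus caput 15.1% passed as lower and 17.2% as higher, and for cauda minus corpus 12.3% and 12.1%. Of 10 smooth muscle markers, all rose in the cauda, by a median of 1.46 over the caput and 1.32 over the corpus, and their mean level was 11.27 to 12.25 in the cauda, 10.26 to 10.90 in the corpus and 10.22 to 10.68 in the caput. Of 8 endothelial markers 7 rose from caput to corpus and 5 rose while 1 fell from corpus to cauda. Of 10 sperm and spermatid markers 5 fell from caput to corpus and 0 passed from corpus to cauda (limma), and their mean level ran from 6.71 to 9.11 in the caput, with medium-low replicate 1 lowest. Of 4 epithelial markers 2 fell from caput to corpus and 0 passed from corpus to cauda, at mean levels of 9.58 to 9.77 in the corpus and 9.40 to 9.88 in the cauda. No marker of either list had an unadjusted p under 0.05 from corpus to cauda. All 4 basal cell markers rose from caput to corpus, by a median of 0.69. All 4 clear cell markers fell from caput to cauda, by a median of 0.62. Of 4 markers of steroid-making cells 3 were measured. Their mean level was lowest in the corpus, at 5.75 to 5.90, against 5.85 to 6.61 in the caput and 7.14 to 7.83 in the cauda. Of the 3, CYP11A1 carried this dip. CYP11A1, which cuts the side chain of cholesterol, fell by 1.76 to the corpus (adjusted p = 0.000273) and rose by 3.71 to the cauda (adjusted p = 2.96e-07). HSD3B1 was lowest in the caput instead, with segment means of 6.14 in the caput, 6.49 in the corpus and 7.15 in the cauda. HSD3B1 rose by 0.66 from corpus to cauda (adjusted p = 0.0105), and CYP17A1 did not pass. The part of these cells in the results was not tested.

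Adipocytes, the cells of fat tissue, express many of the same genes. Of their 10 listed markers, FABP4 had a signal of 3.50 to 4.07, ADIPOQ of 4.95 to 5.76 and LEP of 5.36 to 5.93, with means above 4.17%, 19.0% and 22.1% of probe sets. Others were brighter, with PLIN1 at 7.22 to 7.73, PLIN4 at 7.59 to 8.30, LIPE at 6.63 to 8.47 and LPL at 6.09 to 9.75, and means above 52.1%, 59.0%, 60.9% and 69.3% of probe sets. Of the 10, limma called 0 between caput and corpus, with 1, LIPE, at an unadjusted p under 0.05, and 1 rose from corpus to cauda. From caput to cauda 3 rose and 1 fell. Over all probe sets, 33.2% passed between caput and corpus, 24.3% from corpus to cauda and 32.2% from caput to cauda. The mean level of the 10 markers was 6.5 to 6.63 in the corpus and 6.55 to 6.65 in the cauda. Medium-low caput replicates 1 and 2 had mean levels of 6.11 and 6.13, against 6.63 to 6.70 on the other caput arrays. The markers did not share this direction. For medium-low minus high in the caput, 5 differed below 0 and 5 above, with a median of -0.0094 and a lowest of -2.20. The part of adipocytes in the results was not tested.

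**Figure D5:**
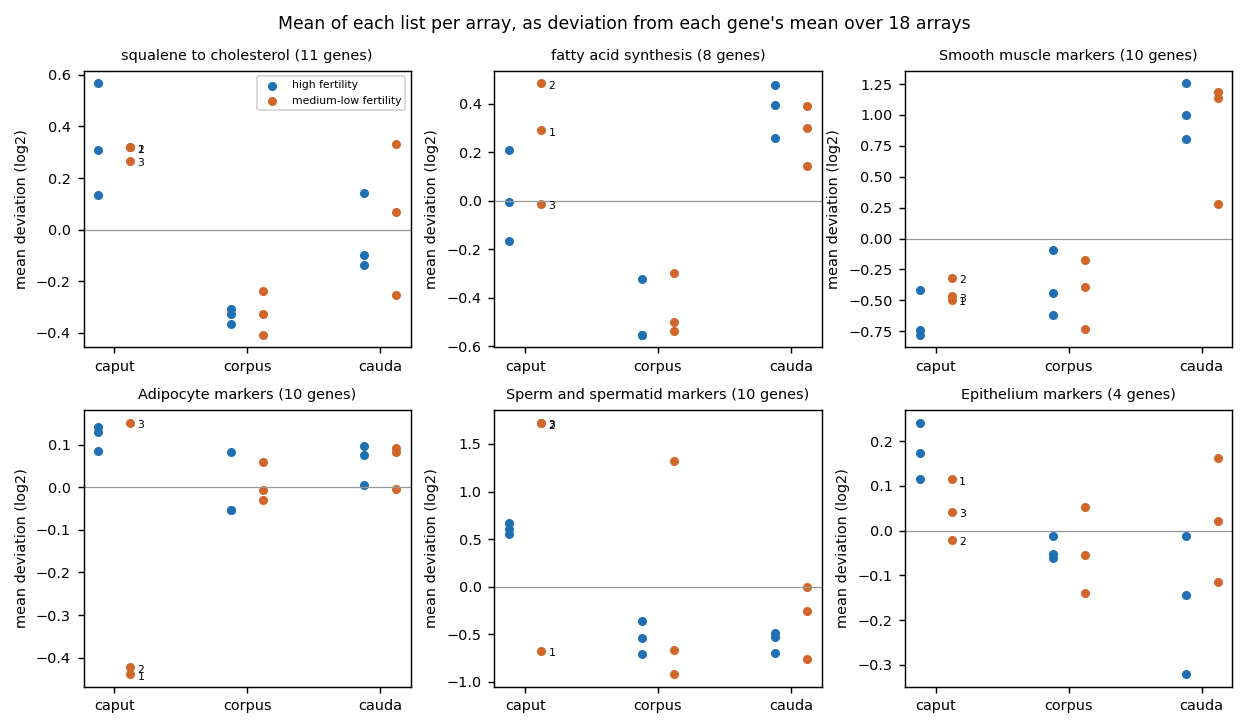
Mean log2 signal of 6 gene lists on each array, as the deviation from each gene's mean over 18 arrays, by segment and fertility group; numbers mark medium-low caput replicates, and each panel has its own vertical scale. Both synthesis lists dip in the corpus, while smooth muscle markers rise only in the cauda. The mean of the adipocyte markers is lowest in medium-low caput replicates 1 and 2.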

How the data were processed

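The deposited log2 values, 1 for each probe set of a cattle expression array on each of 18 arrays, were used as given. Per the submitters' processing notes the authors used RMA, which corrects background, equalises the arrays and summarises probes; Affymetrix Expression Console and Partek 6.5 are listed without a role. There are no detection calls, so low signals may be background. Per the labels' protocols, biotin labelling used a kit for whole transcripts. Of 26773 probe sets, 18457 named 1 gene, 688 several and 7628 none.

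One model of 6 group means was fitted to all probe sets (limma 3.58.1, R 4.3.3) with Benjamini-Hochberg adjustment over 26773 and a threshold of 0.05. Segment differences were averaged over both fertility groups. The fit was tested on simulated arrays with independent noise, which held neither ties between arrays of a bull nor arrays that stand apart. Genes and lists were chosen with earlier results of these data known. Up to 10 passing members per segment comparison are described with array values, as ranges and medians over 6 arrays, and the 3 of smallest p per fertility comparison. Alternatives were other scalings, filters, array weights, a replicate block and left-out arrays.

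The labels do not tie replicate numbers to bulls. Deviations of same-numbered arrays from their group means correlated by over 0.1 in every pair for cauda with caput (0.149 to 0.302) and cauda with corpus (0.154 to 0.550), and in 5 of 6 pairs for corpus with caput, so the block was used as an alternative. The main fit took the 18 arrays as independent, although they came from 6 bulls. Its p-values set differences against the spread between these arrays, and the number of bulls limits how far the results reach.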

Additional observations from a re-analysis of the deposited data

How the results depend on the processing

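No call changed direction in any setting run. Counts of genes passing moved by over 1.5 times with the medium-low bulls alone for cauda minus caput (6, against 13, with 20.5% of probe sets), and for cauda minus corpus with the high bulls alone (10, with 14.5%) or the medium-low bulls alone (9, against 17, with 10.1%), where 3 arrays a group in place of 6 were compared. Array weights gave 11 genes for fertility in the caput (18.6% of probe sets) and 5 for the interaction (6.49%), against 0 each. Leaving out each of 18 arrays in turn gave 13 to 17 genes for corpus minus caput, 10 to 15 for cauda minus caput, 16 to 18 for cauda minus corpus, 0 to 12 for fertility in the caput, 0 to 7 for the interaction and 0 to 0 for fertility in corpus, in cauda and over the segments; 12 and 7 came without medium-low caput replicate 3 (17.6% and 8.81% of probe sets). For the other left-out arrays the share of all probe sets was not counted. With the replicate block, 17, 16 and 17 genes passed for corpus minus caput, cauda minus caput and cauda minus corpus. The shares of all probe sets were then 38.1%, 36.5% and 28.7%, against 33.2%, 32.2% and 24.3% in the main fit. The block changed no call beside those given above. Of 46 segment calls, 46 held with the dim filter, array weights, the other prior, the mean of probe sets and the block, 44 under each scaling, 41 with only the compared groups in the fit or without both arrays that stood apart, 35 in the high bulls alone and 27 in the medium-low bulls alone.

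Some calls near the threshold were lost without single arrays. SREBF1 for corpus minus caput passed only without high cauda replicate 2 or medium-low caput replicate 3 (adjusted p up to 0.117 otherwise), and ELOVL6 for cauda minus caput was lost without 11 arrays (up to 0.113), most without medium-low cauda replicate 2. FADS2 for corpus minus caput (up to 0.0765) was lost without high caput replicate 1, high corpus replicate 2 or 3, medium-low caput replicate 2 or 3, or medium-low corpus replicate 1 or 3. MSMO1 for the same comparison (up to 0.0609) was lost without high caput replicate 3, high corpus replicate 1, or medium-low corpus replicate 1 or 2. For cauda minus caput, SREBF2 (up to 0.0916) was lost without high caput replicate 1 or 2, medium-low caput replicate 3, high cauda replicate 2 or 3, or medium-low cauda replicate 1 or 3, and LPIN1 (up to 0.0785) without each of the 3 high caput replicates in turn, high cauda replicate 1 or 3, or medium-low cauda replicate 1 or 2. CYP51A1 for cauda minus corpus (up to 0.0605) was lost without high corpus replicate 2, high cauda replicate 2, medium-low corpus replicate 3, or medium-low cauda replicate 1 or 3. LPIN1 for cauda minus caput was -0.56 without medium-low caput replicate 3, and its fertility difference in the caput was -0.93 without replicate 1. Signals near background bound no fold, and 3 bulls a group limit every fertility comparison.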
